A study of Homo sapiens with 15 samples.

Results

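SNB19 is a human glioblastoma cell line, and these cells were transduced with lentiviral vectors that carried the short form of ZBTB18 (SF-Nte) or the full-length protein (FL). The comparison of both unmutated forms is described here across all genes with enough counts, 3 SF-Nte libraries against 3 FL libraries, which are 6 of the 15 libraries of the series. Of 18485 gene symbols in the count table, 6767 were deep enough to be tested. The other libraries came from the same cell line with a mutant of each form (SF-mut and FL-mut) or the empty vector (EV), also in groups of 3. All 5 groups thus carried a lentiviral pCHMWS vector and were grown in DMEM with 10% serum, and polyadenylated RNA was read as PCR-amplified cDNA on the Oxford Nanopore platform. The labels give neither the residues altered in the mutants, nor the part of the protein that the short form lacks, nor the time after transduction. Nothing in them tells whether the 3 libraries of a group were grown apart, so every p-value below covers the spread between libraries alone, which may be technical.

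ZBTB18, also known as RP58, is a transcriptional repressor with a BTB domain, through which such proteins pair and recruit partners, and C2H2 zinc fingers, which bind DNA at an E-box-like sequence. It is best known from the developing cortex, where it holds back progenitor genes as neurons form. In glioblastoma it is known as a brake on the mesenchymal programme, a state marked by genes of the cytoskeleton, the matrix, calcium-binding S100 proteins and galectins, and it acts in part through CTBP corepressors. A repressor lowers the mRNA of its targets, so the direction of each difference between the forms is given throughout.

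ZBTB18 mRNA was high in both groups. Its level was 470.0, 199 and 234 CPM in the SF-Nte libraries, against 635, 3067 and 623 CPM in FL and 7, 4.37 and 7.12 CPM in EV (a count scaled to the library's total by TMM, as are all levels below). All construct libraries lay far above EV, every SF-Nte library lay below every FL library, and FL replicate 2 stood well above the other FL libraries. The log2 fold change of SF-Nte over FL was -2.26 ± 0.76 (SE, n = 3 each; edgeR adjusted p = 0.189, unadjusted p = 0.00943), and it was -1.06 without FL replicate 2. FL libraries thus held more ZBTB18 mRNA than SF-Nte libraries, but the difference did not pass the test. The counts cannot tell the vector's transcript from the cell's own at chromosome 1, 244048939 to 244057476 (GRCh38, plus strand). The abundance of the proteins was not measured here.

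Total counts were 432611 to 603155 in SF-Nte libraries, against 803316 to 1393060 in FL. The 10 most abundant genes held 23.6% to 24.1% of the counts in SF-Nte, against 17.3% to 18.1% in FL, and 115 of the genes tested had 0 counts in all SF-Nte libraries, against 21 in FL. Replicates differed by more than sampling noise in both groups, with a chi-square per gene of 4.23 to 5.52 in SF-Nte and 13.1 to 23.2 in FL. This measure grows with depth and covered 3302 to 3594 genes in SF-Nte and 5302 to 5805 in FL. It therefore does not show which group varied more. The deposited sample sheets list SF-Nte, FL, FL-mut and EV together, each library with a barcode of its own. SF-mut stands on another sheet, beside SF-Nte again, with barcodes that EV also used, so it may come from another run. Which of these listings the SF-Nte libraries were sequenced under is not stated, so if they were not run with FL, run and form cannot be told apart. In RNA from bulk cells, fewer cells of a type and less RNA per cell cannot be told apart. Of the fixed markers of glial and glioma cells, 9 of 10 were in the table and all 9 had counts in every group, with sums of 947 to 1195 CPM in SF-Nte, 255 to 523 CPM in FL and 602 to 1049 CPM in EV. VIM, itself among the genes called below, made up most of each sum in SF-Nte and more of it than any other marker in FL. SOX2, CD44 and CRYAB overlapped between SF-Nte and FL, as did the barely read GFAP and EGFR. Of the markers of other cell types, immune markers summed to 9.96 to 30.8 CPM in SF-Nte and 5.55 to 12.4 CPM in FL (CD14 and CD3D at 0 in both). Epithelial markers summed to 49.8 to 63.6 CPM in SF-Nte and 19.4 to 63.4 CPM in FL (CDH1 at 0 in both). Endothelial markers summed to 1.88 to 11.6 CPM in SF-Nte and 13.7 to 24.2 CPM in FL (EMCN, ESAM and FLT1 at 0 in both). Their part in the results was not tested.

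Between the forms, 72 of 6767 genes (1.06%) passed edgeR's test at an adjusted p under 0.05. SF-Nte cells had higher levels of 33 genes (0.488%) and lower levels of 39 (0.576%). The higher set was led by S100A6, S100A4 and S100A2, LGALS1, ANXA2, HMGN3 and MT2A, and also held CCL2, SPP1, VIM, TMSB4X and MYC. The lower set held all 5 SPANX genes tested, SQSTM1 and IGF2R, which serve autophagy and lysosomal sorting, and MDK, TAGLN, CTGF and CCND3. In none of the 72 did an SF-Nte library overlap with an FL library, while 24.4% of all genes tested showed no overlap (9.86% higher and 14.6% lower in SF-Nte). Log2 fold changes ran from 1.02 to 5.72 in the higher set and from -1.55 to -5.81 in the lower set, leaving aside 8 genes with 0 counts in SF-Nte. The median over all genes tested was -0.15, with 42.86% above 0.

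How many genes passed depended on the libraries used. Leaving out SF-Nte replicate 1 left 13 genes (12 higher, 1 lower), SF-Nte replicate 2 left 22 (15 and 7) and SF-Nte replicate 3 left 24 (16 and 8). Leaving out FL replicate 2 left 11 (10 and 1) and FL replicate 3 left 47 (20 and 27), while 65 (27 and 38) passed when FL replicate 1 was dropped. HMGN3, S100A6, S100A4, LGALS1, ANXA2, MT2A, S100A2, MDP1 and SH3BGRL passed each time, and all 9 were higher in SF-Nte. Under the 9 alternatives that drop no SF-Nte or FL library, TCF3, ABCD3, STK3, ST7, AHI1 and RSRC1 passed in 5, AC275455.1 in 4, and TPM4, PLAU, HCCS, RBBP6, NAA38 and AC079597.3 in 6. DESeq2 called 296 genes, 127 higher and 169 lower, among them all 72. A correction for transcript length and GC content turned the split to 54 higher and 30 lower and moved the median of all genes to 0.09.

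**Figure D1:**
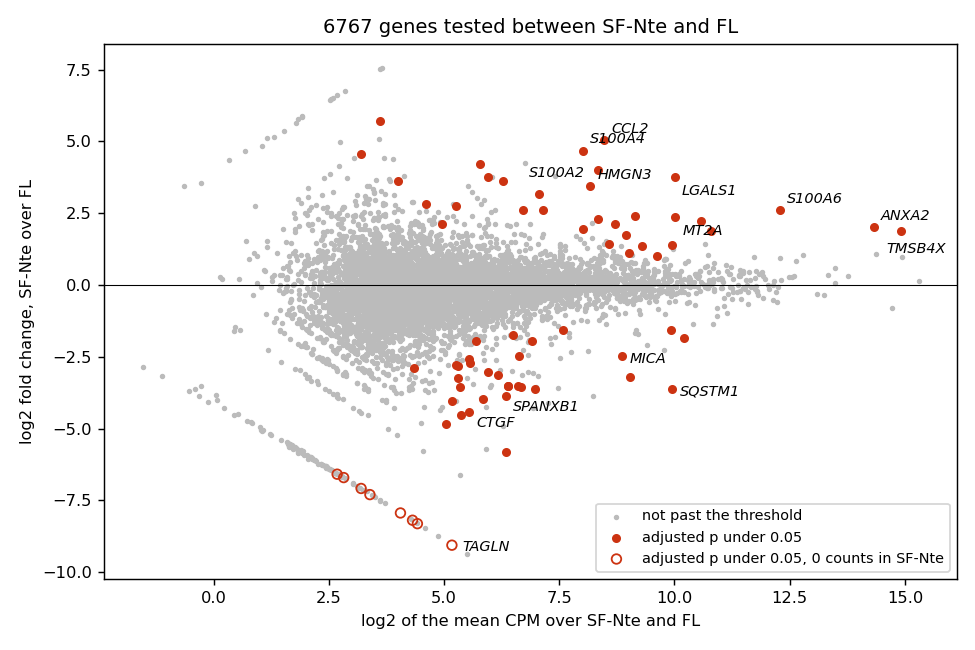
Log2 fold change of SF-Nte over FL against the log2 mean CPM of both groups for the 6767 genes tested, with the 72 genes past an adjusted p of 0.05 in red. Open circles are the 8 of these with 0 counts in all SF-Nte libraries, whose height depends on the prior count and is no measured fold. S100A4 and CCL2 stand at 4.68 and 5.05, and SQSTM1 at -3.61.

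The S100 proteins are small calcium-binding proteins, many of them encoded side by side on chromosome 1, and several mark mesenchymal glioblastoma. Of 9 tested genes of this list, 3 rose in SF-Nte and 0 fell, against 0.488% and 0.576% of all genes tested, shares that hold for every list below. The median log2 fold change was 2.11, against -0.15 over all genes tested. The lists were chosen with earlier results of these data known, so their counts are no independent evidence of a direction. S100A6 (chromosome 1, 153534599 to 153536244, minus strand) had 9239.6, 7727 and 8726 CPM in SF-Nte libraries, against 1931, 1208 and 1109 CPM in FL and 12727, 13753 and 13131 CPM in EV. Every SF-Nte library lay above every FL library and below every EV library. The log2 fold change of SF-Nte over FL was 2.60 ± 0.23 (SE, n = 3 each; adjusted p = 2.35e-05).

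S100A4 (chromosome 1, 153543613 to 153550136, minus strand), a protein tied to cell motility, had 559, 534 and 393 CPM in SF-Nte, against 13.2, 7.46 and 36.8 CPM in FL. The FL libraries were all low, with replicate 3 the highest of them, and the groups lay far apart. This was a log2 fold change of 4.68 ± 0.53 (adjusted p = 0.000427). S100A2 (chromosome 1, 153561108 to 153567890, minus strand) had 836, 595 and 403 CPM in SF-Nte, against 47.9, 3.73 and 60.0 CPM in FL, where replicate 2 was near 0. Its log2 fold change was 4.01 ± 0.63 (adjusted p = 0.0101). The EV libraries overlapped with SF-Nte in both genes, at 238, 354 and 671 CPM for S100A4 and 441, 597 and 978 CPM for S100A2.

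The other S100 genes of this cluster did not pass. S100A16 had 212, 184 and 169 CPM in SF-Nte, against 75.6, 36.1 and 17.4 CPM in FL, with no overlap (log2 fold change 2.11 ± 0.54, adjusted p = 0.0863). S100A3 was barely read, at 9.63, 3.76 and 0 CPM in SF-Nte and 0 in all FL libraries. S100A11 (0.20), S100A10 (0.15) and S100A13 (0.12) had log2 fold changes near 0, and the last 2 crossed 0 with 1 library left out (S100A10 -0.25 without SF-Nte replicate 3 and -0.08 without FL replicate 3, S100A13 -0.11 without FL replicate 1). S100A11, for one, had 1385 ± 106 CPM in SF-Nte and 1210.2 ± 203 CPM in FL (SD, n = 3). S100PBP, which binds S100P and is itself no S100 protein, lay at -0.90.

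LGALS1 and ANXA2 were the members of the galectin and annexin list that passed, 2 of 11, both higher in SF-Nte (list median 0.48). Of all genes tested, 0.488% were called higher. LGALS1 (chromosome 22, 37675608 to 37679806, plus strand) encodes galectin-1, a lectin that glioma cells secrete. It had 1922, 1983 and 1845 CPM in SF-Nte, against 202, 83.3 and 138 CPM in FL and 2375, 1299.7 and 2259 CPM in EV. The SF-Nte libraries agreed closely, and FL stood alone at the low end (log2 fold change 3.76 ± 0.46, adjusted p = 0.000885).

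ANXA2 (chromosome 15, 60347134 to 60402883, minus strand), a calcium-dependent membrane binder and S100 partner, had 35934, 32897 and 29979 CPM in SF-Nte, against 7441, 8235 and 8709 CPM in FL. SF-Nte and FL did not overlap, and EV, at 14039, 16531 and 31278 CPM, lay above FL and reached into the SF-Nte range. SF-Nte over FL gave 2.02 ± 0.27 on the log2 scale (adjusted p = 0.00201). The remaining 9 members, among them ANXA1 (-0.61), ANXA5 (0.99) and LGALS3 (-0.82), did not pass.

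HMGN3 (chromosome 6, 79201245 to 79234738, minus strand), a nucleosome-binding protein of the high-mobility-group families, had the smallest p of all genes. Its level was 676, 519 and 396 CPM in SF-Nte, against 43.7, 62.2 and 39.7 CPM in FL and 482, 389.8 and 441 CPM in EV. The FL libraries stood apart below all others, while SF-Nte and EV overlapped. The log2 fold change was 3.45 ± 0.29 (adjusted p = 2.32e-05). It was the only member called of 9 tested in this list, whose median was 0.10 (-0.36 to 0.28 under the alternatives run).

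MT2A (chromosome 16, 56608199 to 56609497, plus strand), a metallothionein that binds zinc and copper, had 1872, 1349 and 2015 CPM in SF-Nte, against 422, 174 and 406 CPM in FL (2.38 ± 0.34 on the log2 scale, adjusted p = 0.00375). The other 2 metallothioneins tested did not pass, with log2 fold changes of 0.30 and 0.94. SH3BGRL (chromosome X, 81201943 to 81298547, plus strand), a small thioredoxin-like protein, had 117, 166 and 149 CPM in SF-Nte, against 6.94, 16.2 and 12.6 CPM in FL (3.61 ± 0.59, adjusted p = 0.0108). MDP1 (chromosome 14, 24213937 to 24216070, minus strand), a magnesium-dependent phosphatase, had 48.2, 39.5 and 39.8 CPM in SF-Nte, against 4.85, 7.46 and 5.81 CPM in FL (2.81 ± 0.46, adjusted p = 0.0108). For all 3 genes the groups were well apart. MDP1 shares exons with the read-through gene NEDD8-MDP1, and its call was lost when all libraries were thinned to the depth of the shallowest.

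**Figure D2:**
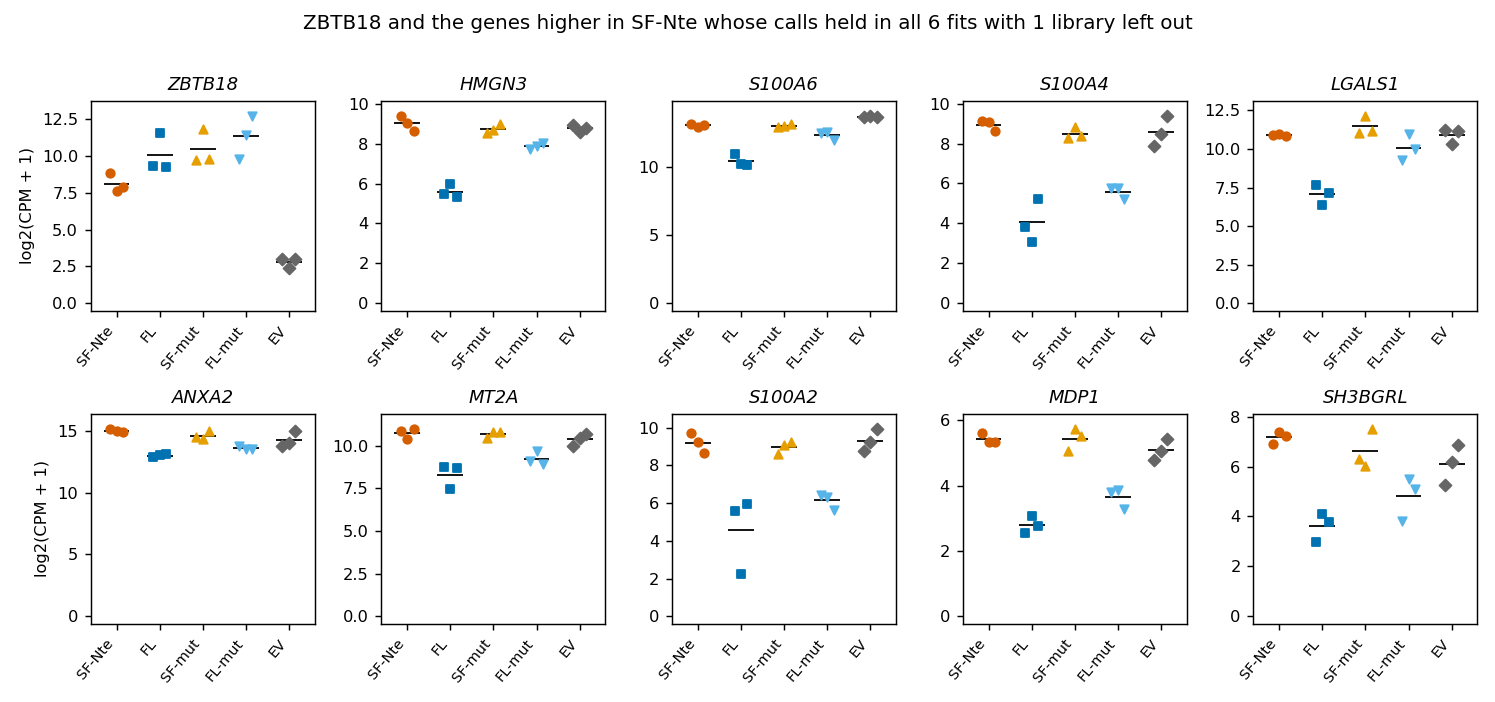
Level of ZBTB18 and of the 9 genes called whichever 1 library was dropped, as log2(CPM + 1), with 1 point per library and a line at the group mean of the log values, for SF-Nte, FL, SF-mut, FL-mut and EV (n = 3 each). In the 9 genes the FL mean is the lowest of the 5 groups, and the FL-mut mean is the next lowest.

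As ZBTB18 binds an E-box-like core, the promoters of the genes called were searched for CATCTG and its reverse complement CAGATG on either strand, in the RefSeq windows of GRCh38.p14 from 250 bases before to 50 bases after the start. The core stood in 3 of 26 promoters of genes higher in SF-Nte (11.5%) and in 3 of 31 of genes lower in SF-Nte (9.68%), against 9.01% of the 5283 promoters of tested genes and 14.8% of all 27305 promoters. The shares of the genes called were thus near that of the genes tested. The longer ACATCTG (or CAGATGT), which overlaps the core, stood in 0 of 26 and 1 of 31, against 1.72% of tested genes. The 4 stretches of 60 bases below, 5′ to 3′ on the gene's strand, show the match in capitals for the 3 higher genes that had it and for the lower gene with the longer form. They lie at chr1:153536182-153536241 (minus strand), chr14:24216094-24216153 (minus strand), chr12:21657969-21658028 (minus strand) and chr14:50871946-50872005 (plus strand), and the match begins 245, 60, 159 and 80 bases before the start.
S100A6: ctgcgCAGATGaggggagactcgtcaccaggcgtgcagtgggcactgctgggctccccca
MDP1: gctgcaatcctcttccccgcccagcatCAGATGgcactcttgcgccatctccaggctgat
LDHB: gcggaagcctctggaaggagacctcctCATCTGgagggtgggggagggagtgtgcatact
ABHD12B: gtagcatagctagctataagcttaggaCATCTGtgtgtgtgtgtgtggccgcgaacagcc
A match is a description of these letters and not a bound site, and windows without it, such as those of HMGN3, S100A4, S100A2, ANXA2 and MT2A, only lack these letters.

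Genes of the cytoskeleton made up a further part of the higher set. VIM, which encodes the intermediate filament vimentin of mesenchymal and glial cells, had 713, 739.6 and 844 CPM in SF-Nte, against 287, 143 and 249 CPM in FL (1.75 ± 0.38 on the log2 scale, adjusted p = 0.0361). TMSB4X, which encodes the actin-sequestering thymosin beta 4, had 51610.4, 46697 and 47587 CPM in SF-Nte, against 11998, 10609 and 16993 CPM in FL (1.88 ± 0.39, adjusted p = 0.0297). In both genes the groups did not overlap and FL was the lower one. TMSB4XP4, a processed pseudogene of TMSB4X, was also called (1.87 ± 0.38), and reads of the pair could be split between them. EV spread widely for TMSB4X, at 13706, 21522 and 49909.7 CPM.

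CSRP1, a LIM protein of actin bundles, had 96.3, 60.2 and 159 CPM in SF-Nte, against 9.71, 6.22 and 0 CPM in FL (4.23 ± 0.81, adjusted p = 0.0186). TPM4, a tropomyosin, had 57.8, 60.2 and 32.4 CPM in SF-Nte, against 11.1, 14.9 and 8.71 CPM in FL (2.12 ± 0.47, adjusted p = 0.0403), and PFN2, a profilin, had 542 ± 122 CPM in SF-Nte and 109.8 ± 40.4 CPM in FL (2.30 ± 0.45). All FL libraries were below all SF-Nte libraries in these genes. TAGLN, the smooth-muscle actin binder transgelin, went the other way and is described with the lower genes. Of 32 tested genes of actin-binding proteins and tropomyosins, TMSB4X, CSRP1 and TPM4 rose and TAGLN fell, with a median of 0.05 (-0.05 to 0.16 under the alternatives run), so ACTB (0.20), CFL1 (0.32), PFN1 (-0.73) and 25 more did not pass. Calls of VIM, TPM4, TMSB4X and TMSB4XP4 were lost in each of the 6 fits with 1 library left out (adjusted p up to 0.201, 0.143, 0.175 and 0.163), and those of CSRP1 and PFN2 without SF-Nte replicate 1 or 3 or FL replicate 2, and for PFN2 also without FL replicate 3 (up to 0.0943 and 0.139).

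Among secreted factors, CCL2, a chemokine that attracts monocytes, showed one of the largest differences. It had 772, 595 and 695 CPM in SF-Nte, against 33.3, 7.46 and 19.4 CPM in FL and 82.5, 227 and 1550.1 CPM in EV. FL was the low group of these, and EV replicate 3 lay above all other libraries. FL-mut was low as well, at 15.1, 41.9 and 12.5 CPM, against 217, 166 and 316 CPM in SF-mut. The log2 fold change was 5.05 ± 0.91 (adjusted p = 0.0145), and the call was lost without SF-Nte replicate 1, FL replicate 2 or FL replicate 3 (adjusted p up to 0.0882).

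SPP1, which encodes osteopontin, had 928, 1041 and 882 CPM in SF-Nte, against 284, 58.5 and 189.7 CPM in FL (2.41 ± 0.52, adjusted p = 0.0359). PLAU, the urokinase that activates plasminogen, had 27, 11.3 and 14.9 CPM in SF-Nte, against 0, 0 and 1.94 CPM in FL (4.56 ± 1.03, adjusted p = 0.0451). FL had only 1 library with any PLAU reads. It was the only call among 13 tested genes of plasminogen activation and matrix proteases (median 0.76). SPP1 and PLAU each passed in 1 of the 6 fits with 1 library left out, with adjusted p up to 0.14 and 0.198.

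Metabolic enzymes in the higher set were LDHB, a lactate dehydrogenase subunit, MTHFD2, an enzyme of mitochondrial folate metabolism, and MGST3, a microsomal glutathione transferase. LDHB had 1554, 1468 and 1270.0 CPM in SF-Nte, against 560.4, 517 and 570.1 CPM in FL (1.38 ± 0.25, adjusted p = 0.0145). MTHFD2 had 441, 363 and 431 CPM in SF-Nte, against 80.4, 114 and 126 CPM in FL (1.95 ± 0.42, adjusted p = 0.0361), and MGST3 had 2596, 2751 and 2224 CPM in SF-Nte, against 270.5, 631 and 726 CPM in FL (2.22 ± 0.40, adjusted p = 0.0145). No library overlapped in any of them. MTHFD2 shares exon sequence with SLC4A5 on the other strand, and the files do not say whether counting used strand. Its call was lost in all 6 fits with 1 library left out (adjusted p up to 0.159), and those of LDHB and MGST3 without SF-Nte replicate 1 or 2 or FL replicate 2 (up to 0.0868 and 0.0614).

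MYC, the growth-promoting transcription factor, had 69.3, 99.7 and 29.9 CPM in SF-Nte, against 9.02, 11.2 and 9.68 CPM in FL and 62, 33.5 and 50.7 CPM in EV (2.73 ± 0.62, adjusted p = 0.0443). The FL libraries were alike and low, and SF-Nte varied. The call was lost under DESeq2's size factors in edgeR, after thinning and in 5 of the 6 fits with 1 library left out, all but that without SF-Nte replicate 3 (adjusted p up to 0.175). CCND3, a cyclin of G1, was the other call among 11 tested genes of this list, and it was lower in SF-Nte.

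RNA-binding and chromatin proteins were also called. RBMS3, an RNA-binding protein, had 209.9, 248 and 276 CPM in SF-Nte, against 31.9, 42.3 and 46.5 CPM in FL (2.61 ± 0.44, adjusted p = 0.0131). SNUPN, the import adaptor of small nuclear ribonucleoproteins, had 177, 143 and 222 CPM in SF-Nte, against 27.7, 21.1 and 38.7 CPM in FL (2.62 ± 0.42, adjusted p = 0.0108). Both had all SF-Nte libraries above all FL libraries and lost the call without FL replicate 2 alone (adjusted p = 0.0587 and 0.0587). MORF4L1, which reads methylated histones, averaged 898 ± 84.7 CPM in SF-Nte and 349.8 ± 77.8 CPM in FL (SD, n = 3; 1.36 ± 0.28 on the log2 scale), and passed in 1 of the 6 fits with 1 library left out (adjusted p up to 0.175).

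ARSE, an arylsulfatase gene, had the highest fitted fold change of the set, but its FL libraries held almost no reads. It had 17.3, 30.1 and 24.9 CPM in SF-Nte, against 0, 1.24 and 0 CPM in FL. SELENBP1, a selenium-binding protein, had 135, 45.2 and 169 CPM in SF-Nte, against 6.94, 8.71 and 9.68 CPM in FL (3.77 ± 0.75, adjusted p = 0.0227). LRMDA had 245, 277 and 202 CPM in SF-Nte, against 18.7, 14.9 and 45.5 CPM in FL (3.18 ± 0.72, adjusted p = 0.0443). In these genes FL was low in all libraries. PLEKHG1 averaged 29.6 ± 7.41 CPM in SF-Nte and 2.35 ± 1.59 CPM in FL (3.63 ± 0.77). PPP1CB, a phosphatase catalytic subunit, TMEM14C, MRPL36 of the mitochondrial ribosome and NAA38 of an acetyltransferase complex complete the set, with log2 fold changes of 2.12, 1.42, 1.02 and 1.10. These 8 genes passed in 0 to 4 of the 6 fits with 1 library left out, ARSE in most of them.

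One family in the lower set was SPANX, a group of near-identical genes on the X chromosome that are normally read in testis and are known as cancer-testis antigens. Of 11 listed members, 10 were in the count table and 5 were deep enough to be tested. All 5 members tested fell in SF-Nte, against 0.576% of all genes tested, with a median log2 fold change of -3.53. SPANXB1 (chromosome X, 141002591 to 141003706, plus strand) had 5.78, 16.9 and 7.47 CPM in SF-Nte, against 103, 240.1 and 112 CPM in FL and 16, 14.6 and 8.01 CPM in EV (-3.88 ± 0.67, adjusted p = 0.0136). SPANXA1 (chromosome X, 141583674 to 141585011, minus strand) had 13.5, 9.41 and 17.4 CPM in SF-Nte, against 162, 206 and 97.8 CPM in FL and 27.5, 24 and 14.2 CPM in EV (-3.53 ± 0.61, adjusted p = 0.0136). SF-Nte and EV lay low together, and FL was the high group of these. FL-mut was high as well, at 184 ± 110 CPM for SPANXB1 and 217 ± 141 CPM for SPANXA1 (SD), against 10.4 ± 5.57 and 18.4 ± 13.4 CPM in SF-mut.

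SPANXC had 5.78, 5.65 and 7.47 CPM in SF-Nte, against 90.2, 83.3 and 50.3 CPM in FL (-3.55 ± 0.68, adjusted p = 0.0186). With 3 counts in each SF-Nte library, SPANXC entered the test through libraries where it was high. Its direction is thus no independent evidence. SPANXD averaged 13.4 ± 4.01 CPM in SF-Nte and 110.5 ± 40.8 CPM in FL (SD, n = 3), and its fold change was -3.04 ± 0.56. SPANXA2 carried nearly the same counts as SPANXA1 in every library, and reads of such copies can be split or shared by the counting. The 5 genes thus may not be 5 independent measurements. No SPANX gene passed without SF-Nte replicate 1 or without FL replicate 2 (adjusted p up to 0.101), 1 passed without SF-Nte replicate 2 and 2 without SF-Nte replicate 3.

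SQSTM1 encodes p62, a receptor that delivers cargo to autophagy. It had 166, 167 and 117 CPM in SF-Nte, against 1881, 2542 and 1086 CPM in FL and 1457, 5102 and 822 CPM in EV. SF-Nte lay below FL and EV, and the EV libraries disagreed widely. SF-mut was low as well, at 258, 200 and 170 CPM, against 980, 770 and 406 CPM in FL-mut. The log2 fold change was -3.61 ± 0.58 (adjusted p = 0.0108), and the call was lost without SF-Nte replicate 1 (adjusted p = 0.0518). SQSTM1 (chromosome 5, 179806398 to 179838078, plus strand) overlaps MRNIP (chromosome 5, 179835133 to 179862173, minus strand), which acts in DNA repair and was called as well (-3.21 ± 0.56). With strand use unknown, reads of this pair cannot be told apart.

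IGF2R (chromosome 6, 159969099 to 160113507, plus strand), the receptor that sorts lysosomal enzymes, had 11.6, 5.65 and 4.98 CPM in SF-Nte, against 52.7, 113 and 50.3 CPM in FL and 55.5, 67 and 55.2 CPM in EV (-3.24 ± 0.56, adjusted p = 0.0136). Here FL and EV lay together and SF-Nte below both. The call was lost without SF-Nte replicate 2 or 3 or FL replicate 2 (adjusted p up to 0.0734). Of 27 tested genes of autophagy receptors and lysosomes, SQSTM1, MRNIP and IGF2R fell and 0 rose, and the median was -0.55. MRNIP acts in DNA repair and overlaps SQSTM1. GABARAPL2, an autophagosome protein that did not pass, had 3.85, 3.76 and 2.49 CPM in SF-Nte, against 34, 73.4 and 27.1 CPM in FL.

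For 8 genes no read was found in any SF-Nte library, so only a lower bound on the difference can be given, taking 3 counts over the group as the floor. MDK, a heparin-binding growth factor, had 33.3, 37.3 and 58.1 CPM in FL and was at least 20.8-fold lower in SF-Nte (adjusted p = 0.0162). TAGLN had 89.5, 69.7 and 57.1 CPM in FL and was at least 34.9-fold lower (adjusted p = 0.0188). SYVN1, a ubiquitin ligase that clears misfolded proteins from the endoplasmic reticulum, had 20.8, 46 and 32.9 CPM in FL and was at least 16.1-fold lower (adjusted p = 0.0362). All FL libraries held reads of all 3. TAGLN and SYVN1 overlap PCSK7 and MRPL49 on the other strand.

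The E protein TCF3, which pairs with other helix-loop-helix factors, had 16, 28.6 and 10.6 CPM in FL and was at least 8.91-fold lower in SF-Nte (adjusted p = 0.0342). RBBP6, a ubiquitin ligase that binds RB1, averaged 21 CPM in FL and was at least 10.2-fold lower in SF-Nte. For HCCS, which attaches haem to cytochrome c, the FL mean was 14.2 CPM and the bound 6.85-fold, and for ABCD3, a peroxisomal transporter, 12.8 CPM and 6.21-fold. The uncharacterised AC275455.1 had 11.1, 92 and 16.5 CPM in FL and was at least 19.3-fold lower, with FL replicate 2 far above the others. None of the 8 passed without FL replicate 2, nor with any 1 SF-Nte library left out.

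CTGF, a matricellular target of YAP and TGF-beta signals, had 5.78, 5.65 and 0 CPM in SF-Nte, against 118, 37.3 and 112 CPM in FL and 17.5, 9.47 and 6.23 CPM in EV (-4.43 ± 0.98, adjusted p = 0.0404). SF-Nte was the lowest group, EV lay just above it, and FL was high in all libraries. Of 16 tested genes of YAP and TGF-beta targets, CTGF fell and TPM4 rose, with a median of 0.55. CYR61, its close relative, did not pass (0.63 ± 0.89, adjusted p = 0.82), nor did TGFBI (102, 75.3 and 87.2 CPM in SF-Nte, against 22.2, 0 and 3.87 CPM in FL, adjusted p = 0.129). The call of CTGF was lost in all 6 fits with 1 library left out (adjusted p up to 0.14).

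CAV2, a caveolin of membrane pits, had 9.63, 15.1 and 12.5 CPM in SF-Nte, against 63.8, 94.5 and 90.0 CPM in FL and 24, 13.1 and 16 CPM in EV (-2.73 ± 0.48, adjusted p = 0.0141). SF-Nte again lay near EV. It was the only call among 5 tested caveolins and flotillins (median -0.78), and CAV1 lay at 0.07 ± 0.57. CCND3 had 11.6, 33.9 and 0 CPM in SF-Nte, against 239, 175 and 128 CPM in FL (-3.52 ± 0.69, adjusted p = 0.0214). GSR, which restores reduced glutathione, had 11.6, 13.2 and 14.9 CPM in SF-Nte, against 113, 67.2 and 58.1 CPM in FL (-2.58 ± 0.52, adjusted p = 0.0244), the only call among 18 tested antioxidant genes of NRF2 (median -0.23). In these genes the 2 groups were apart in every library. The calls of CAV2 and GSR were lost without any 1 SF-Nte library or FL replicate 2, and that of GSR also without FL replicate 1, while CCND3 lost its call without SF-Nte replicate 1, FL replicate 1 or FL replicate 2 (adjusted p up to 0.0878, 0.128 and 0.113).

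MICA, a stress ligand for natural killer cells in the MHC region, had 162, 102 and 167 CPM in SF-Nte, against 504, 984 and 881 CPM in FL and 234, 187 and 221 CPM in EV (-2.46 ± 0.48, adjusted p = 0.0196). AFP, the fetal serum protein alpha-fetoprotein, had 17.3, 16.9 and 12.5 CPM in SF-Nte, against 205, 163 and 194 CPM in FL (-3.57 ± 0.72, adjusted p = 0.0251). LARP1B, an RNA-binding La-related protein, had 1.93, 9.41 and 0 CPM in SF-Nte, against 63.8, 77.1 and 64.9 CPM in FL (-4.05 ± 0.74, adjusted p = 0.015). Of SF-Nte, FL and EV, FL was the high group in all 3 genes, and EV lay between FL and SF-Nte. FL-mut averaged 932 ± 579 CPM for MICA, 82.5 ± 56.3 CPM for AFP and 39.6 ± 16.8 CPM for LARP1B (SD), so MICA was high in FL-mut as well. MICA passed in 1, AFP in 0 and LARP1B in 3 of the fits with a library left out (adjusted p up to 0.107, 0.111 and 0.0899).

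FL replicate 2 carried much of the FL level in some genes. LRRK1, a kinase, had 13.5, 20.7 and 22.4 CPM in SF-Nte, against 130.4, 469 and 99.7 CPM in FL (-3.62 ± 0.69, adjusted p = 0.0186). ABHD12B, a hydrolase gene, had 13.5, 3.76 and 2.49 CPM in SF-Nte, against 43, 226 and 58.1 CPM in FL (-3.98 ± 0.78, adjusted p = 0.0214). SLC44A3-AS1, antisense by name, had 3.85, 3.76 and 0 CPM in SF-Nte, against 83.9, 329.6 and 63.9 CPM in FL (-5.81 ± 1.05, adjusted p = 0.0149), and AC079597.3 had 3.85, 0 and 2.49 CPM in SF-Nte, against 29.1, 136 and 26.1 CPM in FL (-4.84 ± 1.09, adjusted p = 0.0443). In each, FL replicate 2 was the highest library of all 6 by far. Without it the 4 log2 fold changes were -2.61, -2.88, -4.71 and -3.65, and none passed. For USP14, a deubiquitinase of the proteasome, FL replicate 1 stood apart instead, with 5.78, 3.76 and 0 CPM in SF-Nte, against 183, 34.8 and 22.3 CPM in FL (-4.53 ± 0.91), and the log2 fold change without it was -3.03 with no call.

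The remaining 11 genes of the lower set had log2 fold changes from -3.15 to -1.55. Among them, STK3, a Hippo pathway kinase, averaged 4.64 ± 1.86 CPM in SF-Nte and 35.8 ± 15.5 CPM in FL, and CCDC80, a matrix protein, 30.2 ± 17 CPM in SF-Nte and 168 ± 96.6 CPM in FL. PTS, an enzyme of tetrahydrobiopterin synthesis, had 96.3 ± 9.11 CPM in SF-Nte and 288 ± 42.7 CPM in FL, and LSM4, of the U6 small nuclear ribonucleoprotein, 49.2 ± 6.35 CPM in SF-Nte and 193 ± 95.4 CPM in FL. LRRFIP2, ACYP2, C5orf63, ST7, AHI1, ZNF3 and RSRC1 make up the rest. Each of the 11 genes passed in 2 or fewer of the 6 fits with 1 library left out. ACYP2, ZNF3 and RSRC1 share exon sequence with a gene on the other strand (PSME4, ZSCAN21 and SHOX2).

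**Figure D3:**
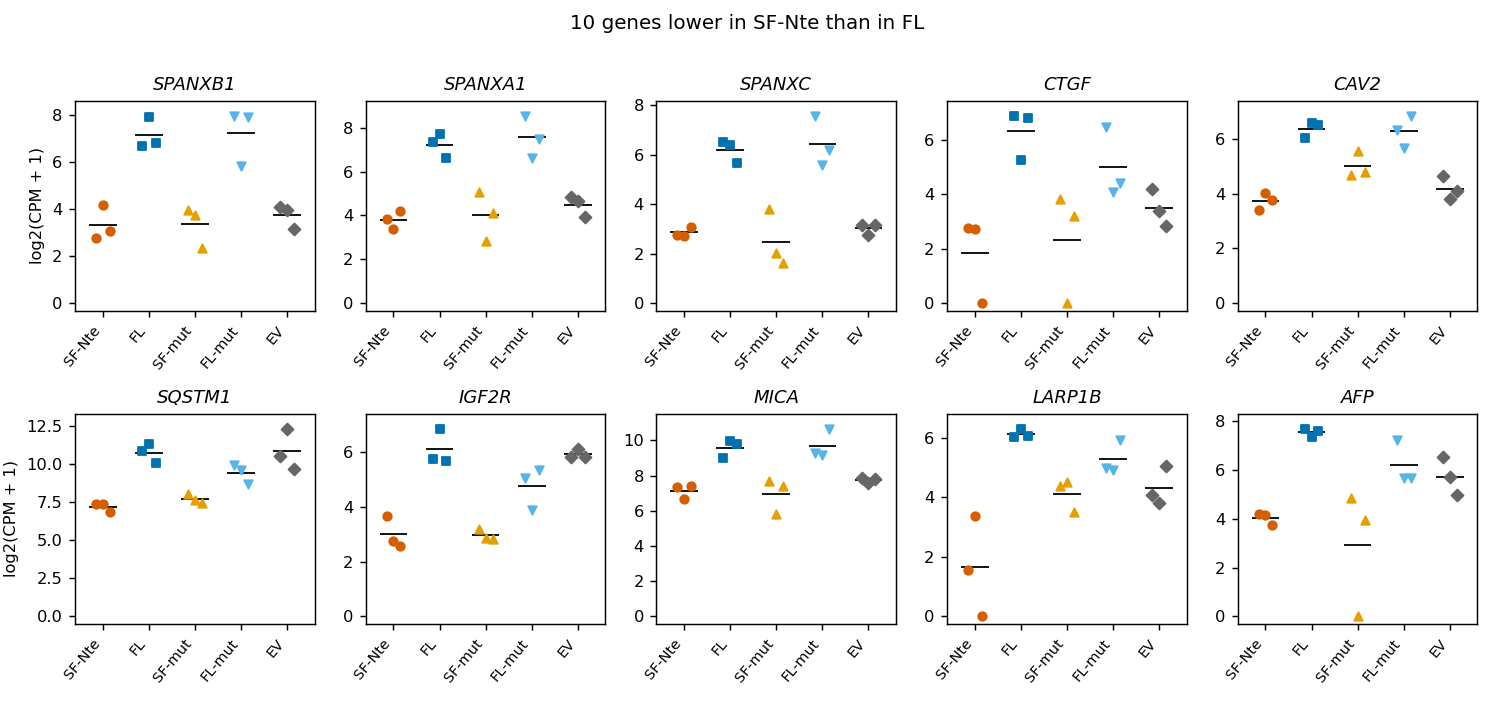
Level of 10 genes lower in SF-Nte than in FL, as log2(CPM + 1), with 1 point per library and a line at the group mean of the log values, for SF-Nte, FL, SF-mut, FL-mut and EV (n = 3 each). SF-Nte overlaps with EV for the SPANX genes and CAV2 and lies below EV for SQSTM1 and IGF2R.

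Lists of genes by role were read by their counts and medians, against 0.488% of all genes called higher, 0.576% called lower and a median of -0.15. At an unadjusted p under 0.05, the shares of all genes tested were 5.22% higher, 7.95% lower and 13.2% in either direction. Of 28 tested genes that mark the mesenchymal state of glioblastoma, 5 rose (S100A6, S100A4, LGALS1, ANXA2 and VIM) and 2 fell (CAV2 and TAGLN), with a median of 0.51. TIMP1, an inhibitor of matrix proteases, did not pass at 561, 493 and 575 CPM in SF-Nte, against 171, 146 and 252 CPM in FL (adjusted p = 0.0746). CD44 (0.57), FN1 (-1.80), CDH2 (-1.57) and CHI3L1 (4.16) did not pass either, and they lay on both sides of 0. The list was drawn up with the difference at S100A6 and LGALS1 in these cells already known, so its count is no independent evidence of a direction.

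Hypoxia-responsive genes had a median of 1.48 over 15 tested, with 14 above 0, and 0 passed edgeR's adjusted test. At an unadjusted p under 0.05, 8 of the 15 were higher in SF-Nte, against 5.22% of all genes tested, and DESeq2 called 2. P4HA1, a collagen prolyl hydroxylase, had 86.7, 141 and 74.7 CPM in SF-Nte, against 6.94, 12.4 and 48.4 CPM in FL (2.16 ± 0.60, adjusted p = 0.109). NDRG1, a stress-response gene, had 127, 124 and 59.8 CPM in SF-Nte, against 0, 29.9 and 11.6 CPM in FL (2.97 ± 0.95, adjusted p = 0.165). Neither gene had an overlap between the groups. The list median stayed between 1.26 and 1.89 under every alternative run.

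Of 17 glycolytic enzymes tested, LDHB rose and 0 fell, with a median of 0.58. At an unadjusted p under 0.05, 7 were higher and 0 lower, against 5.22% and 7.95% of all genes tested. GAPDH, often used as a reference gene, did not pass at 44752, 39126 and 40084 CPM in SF-Nte, against 28744, 13718 and 20538 CPM in FL (0.98 ± 0.23, adjusted p = 0.0585), and PGK1 came close at 1456, 1466 and 1345 CPM in SF-Nte, against 573, 510.0 and 692 CPM in FL (1.27 ± 0.29, adjusted p = 0.0527). SF-Nte libraries were above FL libraries throughout for both. LDHA (-0.18) and ALDOA (-0.33) lay below 0. The number called was 0 to 2 with 1 library left out and 5 under DESeq2.

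The genes of folding and degradation in the endoplasmic reticulum had a median of -1.06 over 22 tested, with 21 below 0. SYVN1 alone passed. At an unadjusted p under 0.05, 8 were lower in SF-Nte, against 7.95% of all genes tested. HSPA5, the chaperone BiP, did not pass at 42.4, 37.6 and 39.8 CPM in SF-Nte, against 45.1, 194 and 159.7 CPM in FL (-1.73 ± 0.67, adjusted p = 0.27), where FL replicate 1 lay close to SF-Nte. HYOU1, another chaperone, had 53.9, 18.8 and 49.8 CPM in SF-Nte, against 49.9, 185 and 206 CPM in FL (-1.85 ± 0.55), and the groups overlapped through FL replicate 1.

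Enzymes of cholesterol synthesis had a median of -1.19 over 18 tested, with 16 below 0. In edgeR 0 passed the adjusted test, 7 were lower at an unadjusted p under 0.05, against 7.95% of all genes tested, and DESeq2 called 1. HMGCS1, which makes HMG-CoA, had 11.6, 7.53 and 4.98 CPM in SF-Nte, against 34.7, 107 and 132 CPM in FL and 6, 3.64 and 26.7 CPM in EV (-3.46 on the log2 scale, adjusted p = 0.126). FDFT1, the squalene synthase, had 262, 307 and 252 CPM in SF-Nte, against 363, 1102 and 1244 CPM in FL and 247, 236 and 313 CPM in EV (-1.72 ± 0.54, adjusted p = 0.16). FL replicates 2 and 3 were high, and FL replicate 1 lay nearer to SF-Nte and EV.

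INSIG1, which holds back the sterol sensor SCAP, had 0, 15.1 and 4.98 CPM in SF-Nte, against 30.5, 137 and 150.0 CPM in FL (-3.93 ± 0.96, adjusted p = 0.068). NPC1, a lysosomal cholesterol exporter, had 15.4, 16.9 and 49.8 CPM in SF-Nte, against 46.5, 719 and 219 CPM in FL (-3.60 ± 1.05, adjusted p = 0.126), and SF-Nte replicate 3 overlapped with FL replicate 1. These were the genes of lowest p among 12 tested SREBP regulators and sterol receptors, with a median of -0.19. Of the 12, edgeR called 0 and DESeq2 2, and 3 had an unadjusted p under 0.05, against 13.2% of all genes tested. SCD, the fatty acid desaturase, lay on the other side at 137, 151 and 187 CPM in SF-Nte, against 7.63, 34.8 and 96.8 CPM in FL (1.77 ± 0.80, adjusted p = 0.354). Fatty acid synthesis had a median of -0.43 over 11 tested and lipid droplet genes -0.24 over 5, with 0 called in either (1 at an unadjusted p under 0.05 in each; DESeq2 0 and 0). Under the alternatives run the medians of these lists changed sign, at -0.77 to 0.13 for SREBP regulators, -0.52 to 0.18 for fatty acid synthesis and -0.45 to 0.60 for lipid droplets.

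Genes of MHC class I and antigen processing had a median of 0.88 over 16 tested. In edgeR 0 passed, and DESeq2 called 2. At an unadjusted p under 0.05, 5 of the 16 were higher, against 5.22% of all genes tested. HLA-B had 137, 115 and 152 CPM in SF-Nte, against 20.8, 34.8 and 39.7 CPM in FL (2.08 ± 0.50, adjusted p = 0.0601). PSME1, a proteasome activator, had 948, 642 and 600.1 CPM in SF-Nte, against 361, 338 and 361 CPM in FL (1.05 ± 0.28, adjusted p = 0.101). Both were apart between the groups but missed the threshold. The 5 tested genes of NF-kB and cytokines had a median of 2.85 and 1 call, CCL2, while CXCL8 lay at -2.13; that median was -0.59 to 3.74 under the alternatives run.

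The corepressor partners of ZBTB18 gave 0 calls among 11 tested in edgeR, with 1 at an unadjusted p under 0.05 and 0 called by DESeq2. HDAC2, a histone deacetylase, had 38.5, 45.2 and 29.9 CPM in SF-Nte, against 79.1, 85.8 and 139 CPM in FL (-1.41 ± 0.55, adjusted p = 0.274), and DNMT1, a DNA methyltransferase, 18 ± 10.5 CPM in SF-Nte and 33.2 ± 24.6 CPM in FL (-0.87 ± 0.82). The DNMT1 libraries overlapped. ID and E proteins had a median of -2.15 over 6 tested (-2.15 also with TCF3 at its bound, and -2.65 to 0.02 under the alternatives run), with TCF3 the only call. ID2, an inhibitor of E proteins, had 3.85, 3.76 and 0 CPM in SF-Nte, against 88.8, 49.8 and 33.9 CPM in FL (adjusted p = 0.177).

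Of the other lists, 5 had medians close to that of all genes. Medians were 0.06 for 61 genes of respiratory complexes, -0.22 for 12 nuclear cytochrome c oxidase subunits, -0.08 for 30 proteasome subunits, -0.16 for 18 S phase genes and -0.28 for 28 genes of G2 and mitosis, and edgeR called 0 in each of these 5 lists (2, 0, 0, 0 and 2 at an unadjusted p under 0.05; DESeq2 called 0, 0, 0, 0 and 1). All 12 oxidase subunits lay below 0, while 42.86% of all genes tested lay above 0. Under the alternatives run the medians were -0.14 to 0.14 for the proteasome, -0.44 to 0.23 for S phase and -0.47 to 0.06 for G2 and mitosis. NDUFB2 of complex I had 1632 ± 169 CPM in SF-Nte and 2698 ± 559.9 CPM in FL (adjusted p = 0.192), and the mitotic gene UBE2C 21.9 ± 9.79 CPM in SF-Nte and 98.6 ± 27.2 CPM in FL (adjusted p = 0.225). CENPE, a mitotic motor, had 0 counts in SF-Nte and 15.3, 11.2 and 10.6 CPM in FL, which is at least 5.99-fold lower, but did not pass. For translation elongation and TOP mRNAs the median lay higher, at 0.34 over 21 tested, with 15 above 0 and 0 calls (DESeq2 2). Of these, 4 were higher at an unadjusted p under 0.05, against 5.22% of all genes tested. For the amino acid response of ATF4 the median was 0.31 over 20 with 1 call, MTHFD2.

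Of 16 tested matrix proteins, 0 passed in edgeR and 2 in DESeq2, and the median was 0.26 (-0.23 to 1.03 under the alternatives run). At an unadjusted p under 0.05, 3 were higher, against 5.22% of all genes tested. SPARC, a matricellular protein, had 507, 369 and 476 CPM in SF-Nte, against 144, 75.9 and 211 CPM in FL (1.65 ± 0.48, adjusted p = 0.126). The groups were apart, and EV spread across both at 174, 198 and 614 CPM. Integrins and adhesion receptors gave 0 calls among 13 (1 at an unadjusted p under 0.05; DESeq2 0) with a median of 0.45. Neural and glial genes gave 0 calls among 11 (DESeq2 1) with a median of -0.01 (-0.37 to 0.30). Of these, 4 had an unadjusted p under 0.05, against 13.2% of all genes tested. PDGFRA, a growth factor receptor of glial progenitors, had 17.3, 18.8 and 2.49 CPM in SF-Nte and 0 counts in FL (adjusted p = 0.105).

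In the lists with 0 calls, the other genes of lowest p had values on both sides of 0. They were CDH11, a cadherin (2.49 ± 1.19), and ITGA3, an integrin (1.68 ± 0.55), NES, which encodes nestin (2.40 ± 0.81), FADS2, a desaturase (1.46 ± 1.14), and HILPDA (1.73 ± 0.59) and BSCL2 (-2.28 ± 1.20) of lipid droplets. For NDUFA12 of complex I the log2 fold change was 0.56 ± 0.26, for the cytochrome c oxidase subunits COX6A1 and COX5A -0.59 ± 0.29 and -0.69 ± 0.63, and for the proteasome subunits PSMD12 and PSMA6 -0.95 ± 0.54 and 0.40 ± 0.26. EEF1G, an elongation factor subunit, had 0.91 ± 0.27, the ribosome-associated RACK1 0.58 ± 0.18, and the nucleotide enzymes TYMS and RRM1 -1.32 ± 0.64 and 0.86 ± 0.54.

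**Figure D4:**
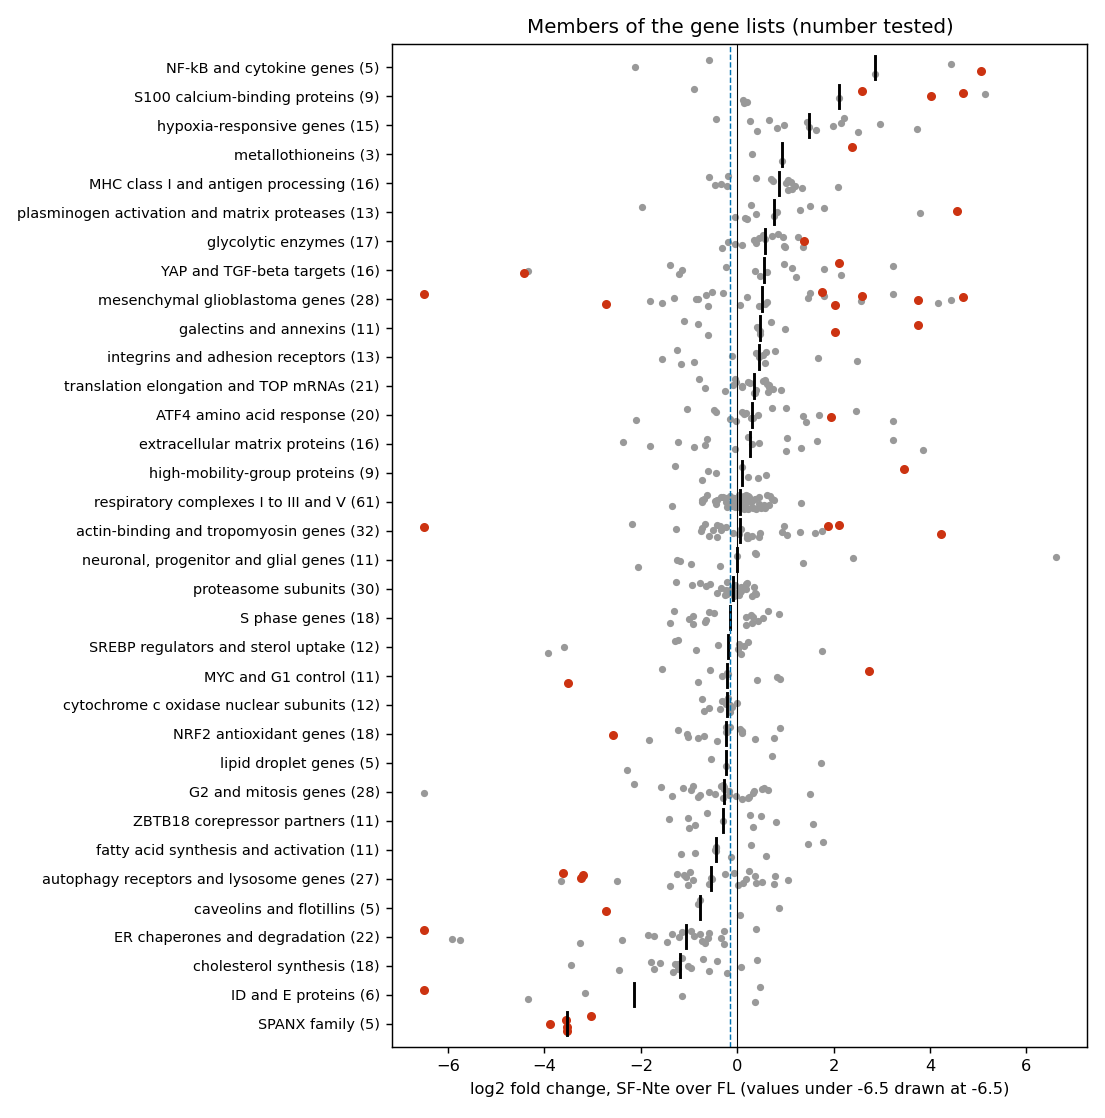
Log2 fold change of SF-Nte over FL for each tested member of 34 gene lists (number tested in brackets), 1 point per gene, red where the gene passed an adjusted p of 0.05, with a black bar at the list median and a dashed line at the median of all genes tested, -0.15. Points drawn at -6.5 had 0 counts in SF-Nte and mark no measured fold; the SPANX family lies lowest, at -3.53, and the S100 list has its median at 2.11.

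The mutant constructs give the same comparison of forms in libraries of neither group, which entered the same fit and the same low-count filter. Of the 33 genes higher in SF-Nte than in FL, 19 had all SF-mut libraries above all FL-mut libraries, against 5.51% of all genes tested, and all 33 had a higher SF-mut mean. Of the 39 lower genes, 21 had all SF-mut libraries below all FL-mut libraries, against 8.02% of all genes, and 37 had a lower SF-mut mean, the exceptions being ACYP2 and USP14. A run of its own and the SF-mut construct cannot be told apart. Depth differed in the same direction as between SF-Nte and FL, at 315693 to 597414 total counts in SF-mut and 865997 to 1313573 in FL-mut. Its part in the shared direction was not tested. SPANXB1 had 14.7, 12.3 and 4.1 CPM in SF-mut, against 251, 56.6 and 243 CPM in FL-mut, and S100A4 had 310.5, 450.0 and 330.1 CPM in SF-mut, against 53.5, 53.2 and 36.9 CPM in FL-mut. Both differed in the same direction as between SF-Nte and FL. MDK was again without reads in SF-mut, and FL-mut had 30.3, 93.9 and 36.1 CPM. TCF3 was likewise at 0 in SF-mut, against 53.5, 14.7 and 55.3 CPM in FL-mut. For scale, 3 counts in 1 library are 4.90 to 9.25 CPM in SF-mut.

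Whether the forms differed by another amount in the mutants was tested as an interaction, and 2 genes passed (0.0296% of 6767), with 315 at an unadjusted p under 0.05 (4.65%). HMGN3 had 377, 409.9 and 513 CPM in SF-mut, against 209, 237 and 259 CPM in FL-mut. The forms were thus closer in the mutants, by 2.57 ± 0.39 on the log2 scale (SE; adjusted p = 0.039). S100A6 had 7781, 8008 and 8843 CPM in SF-mut, against 5698, 5984 and 4106 CPM in FL-mut, a difference between the forms smaller by 1.95 ± 0.31 (adjusted p = 0.0427). In both genes SF-mut stayed near SF-Nte, and FL-mut stood between FL and EV. Each of the 12 fits with 1 library left out called 0 or 1 gene, HMGN3 without SF-Nte replicate 3 or FL replicate 2 and S100A6 without FL replicate 1. After the length and GC correction HMGN3 passed and S100A6 did not (adjusted p = 0.631). LGALS1 (2.44 ± 0.59, adjusted p = 0.573) and S100A4 (1.75 ± 0.66, adjusted p = 0.984) did not pass it.

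**Figure D5:**
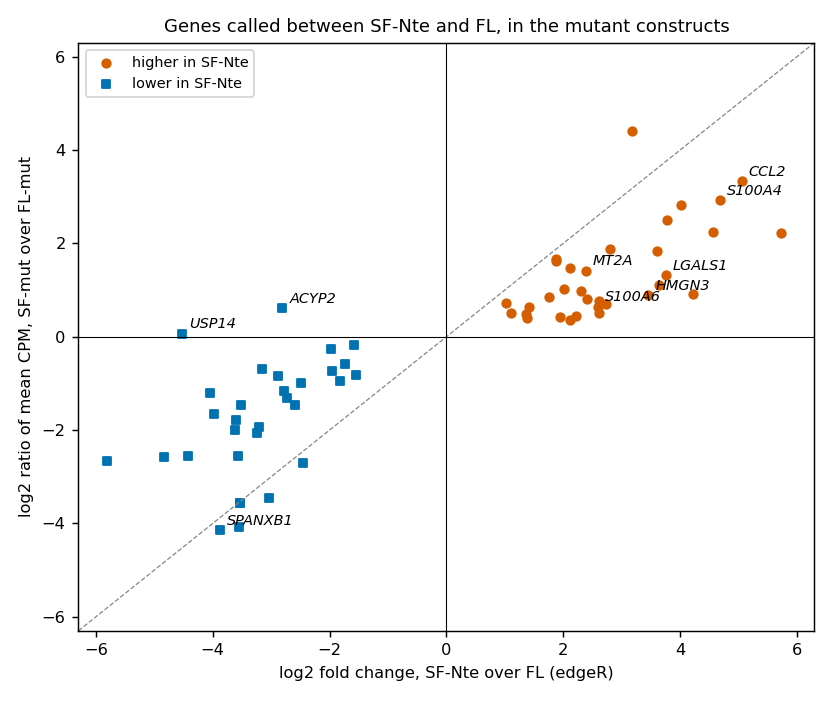
Log2 ratio of mean CPM in SF-mut over FL-mut against the log2 fold change of SF-Nte over FL, for 64 of the 72 genes called between SF-Nte and FL; the other 8 had 0 counts in SF-Nte and are not drawn. The dashed line marks equal differences. All genes higher in SF-Nte lie above 0 on the vertical axis, and ACYP2 and USP14 are the lower genes that lie above it.

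The EV libraries place the levels of both forms, though a comparison of either with EV shares libraries with the one above. Of the 33 higher genes, all FL libraries lay below EV in 28 and all SF-Nte libraries above EV in 8. Of the 39 lower genes, FL lay above EV in 27 and SF-Nte below EV in 27. The shares over all genes were not counted. These genes were chosen by the difference between the same SF-Nte and FL libraries, which favours such positions. The counts therefore describe these genes alone and do not show where either form lies against EV in general. In some genes, such as SNUPN and MDK, the forms lay on opposite sides of EV. Examples of other patterns follow. HMGN3 averaged 530.5 ± 140.4 CPM in SF-Nte, 48.5 ± 12 CPM in FL and 438 ± 46.3 CPM in EV (SD, n = 3 each). LGALS1 averaged 1917 ± 69.3 CPM in SF-Nte, 141 ± 59.3 CPM in FL and 1978 ± 590.2 CPM in EV. SPANXB1 averaged 10.1 ± 6.01 CPM in SF-Nte, 152 ± 76.5 CPM in FL and 12.9 ± 4.26 CPM in EV. In these genes SF-Nte overlapped with EV and FL stood apart from both. IGF2R averaged 7.39 ± 3.62 CPM in SF-Nte, 72.1 ± 35.6 CPM in FL and 59.2 ± 6.74 CPM in EV, and LRRFIP2, a Toll and Wnt signalling adaptor, 9.48 ± 2.04 CPM in SF-Nte, 66.6 ± 9.25 CPM in FL and 57.7 ± 4.09 CPM in EV. Here FL overlapped with EV, and SF-Nte lay below both. SF-mut was low as well, at 6.83 ± 1.16 CPM for IGF2R and 18.5 ± 9.27 CPM for LRRFIP2, against 28.3 ± 13.2 and 41.3 ± 18.5 CPM in FL-mut.

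Transcript length and abundance moved with the calls. The annotated transcripts of the genes called higher had a median length of 1581 bases and those called lower 2339, against 2879.5 over the 6652 tested genes with a length. Of the 33 higher genes, 26 lay in the shortest of 3 equal classes of transcripts, against 16 of the 37 lower genes with a length. Over all 6652 genes, Spearman's rank correlation between length and log2 fold change was -0.09, given as a description across genes of the same libraries. Of the 72 genes, 28 higher and 20 lower ones lay in the highest of 3 equal classes of mean CPM. What part of the difference this carries was not tested beyond the corrected fit, in which 59 of 70 genes with a length were still called.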

How the data were processed

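Human SNB19 cells with 1 of 5 lentiviral constructs were read as Nanopore cDNA in 15 libraries of 3 per group. The authors deposited raw counts per gene symbol in 1 table, with the build named as GRCh38 per the submitters' processing notes. Which aligner and counter made them, and whether strand was used, is not given in the sources used here. From these counts, genes were kept by filterByExpr (minimum 10 counts, total 15), scaled by TMM and tested with edgeR 4.0.16 in R 4.3.3 (quasi-likelihood, robust), with 1 coefficient per group over all 15 libraries and Benjamini-Hochberg adjustment over 6767 genes at 0.05. All adjusted p-values are edgeR's unless DESeq2 1.42.0 is named. Levels are TMM-scaled CPM, and SE is that of the log2 fold change. Genes with 0 counts in a group have a bound from 3 counts over that group, which covers counting error only.

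The members and lists were chosen with earlier results of these data known. The rule for named genes takes ZBTB18, the called genes at both ends of the fold changes (15 each, with separate groups and 10 or more counts throughout the group that is higher), up to 4 called members of each list or its 2 of lowest p, all tested S100 genes and every interaction call; other genes named were chosen after their values were seen. Positions are from GENCODE 29, in which 17975 symbols of 18485 matched and 2 more by an older symbol. The code was tested on simulated data. Same-numbered SF-Nte and FL libraries showed correlations of 0.048, -0.036 and 0.013 over 2082 genes, so the numbers were not taken to pair them. Other scalings, filters, DESeq2, a replicate block, thinned libraries, a fit without other groups, dropped libraries and, added after seeing the data, shared divisors and a length and GC correction were tried. All columns of the table belong to the series.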

Additional observations from a re-analysis of the deposited data

Results flagged for a closer look

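The difference between the forms was larger in the unmutated than in the mutant constructs for 2 genes by edgeR's interaction test. For HMGN3 the log2 difference of SF-Nte over FL exceeded that of SF-mut over FL-mut by 2.57 (adjusted p = 0.039), and for S100A6 by 1.95 (adjusted p = 0.0427). With 1 library left out, HMGN3 lay between 2.41 and 2.78 and S100A6 between 1.81 and 2.24. The adjusted p reached 0.176 and 0.189 in these fits. With the length and GC correction the values were 2.66 for HMGN3 (adjusted p = 0.0208) and 1.83 for S100A6 (adjusted p = 0.631), so S100A6 lost its call.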

How the results depend on the processing

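The 72 calls between SF-Nte and FL became 296 under DESeq2 and 301 with no low-count filter (105 higher and 196 lower), and 11 to 65 with 1 library left out. They numbered 62 to 99 under the other alternatives: 73 with DESeq2's size factors, 69 with a stricter filter, 62 with thinned libraries, 99 with SF-Nte and FL alone, 69 after dividing by shared divisors and 84 after the length and GC correction. Of the 72 genes, 41 passed under all 9 alternatives that drop no SF-Nte or FL library. With the replicate block 81 genes passed (45 higher and 36 lower), 64 of them among the 72; the numbers were not taken to pair samples. The interaction count of 2 became 8 under DESeq2, 49 with no filter, 1 after the length and GC correction, 0 with thinned libraries (310 at an unadjusted p under 0.05), 0 without EV (280) and 0 to 1 with 1 library left out; it stayed at 2 with the replicate block. ZBTB18 was -2.29 with no filter, where it passed (adjusted p = 2.23e-09), and -1.82 with the replicate block. With 1 library left out, S100A10 ran from -0.25 to 0.43 and S100A13 from -0.11 to 0.37. The cause of these changes was not tested. SF-Nte depth limits genes with few counts: 3 counts in 1 library are 5.65 to 7.47 CPM in SF-Nte and 2.08 to 3.73 CPM in FL.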
